A study of Mus musculus with 2 samples.

Results

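Cluster C20 of the deposited annotation held 62 of the 11456 tumour cells in the series and is 1 of the 3 clusters of the class labelled DC (dendritic cells). Its members were taken as every cell with that cluster and class label, 35 from the HSF1 S303/7A library and 27 from the wild-type (WT) library. S303/7A mice carry alanine in place of the serines 303 and 307 of HSF1 (heat shock factor 1), which drives chaperone genes, and the WT mice are the controls. The tumours were grafted into these mice and, per the design text, came from 4 pooled mice, but neither the tumour type nor the age of the animals was found in the labels. After a sort of live cells on CD45, the positive and negative fractions were combined 5 to 1. Each genotype gave 1 library of 3′ end droplet RNA sequencing (10x Genomics), so differences between genotypes have no replicates behind them. Inside the same class stand C16 (224 cells) and C17 (175 cells), and the plasmacytoid dendritic cells (pDC) form a class of their own with 65 cells.

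Conventional type 1 dendritic cells (cDC1) arise under the transcription factors IRF8 and BATF3. They carry the chemokine receptor XCR1, which reads the ligand XCL1 made by natural killer (NK) and CD8 T cells, and the lectin CLEC9A, which recognises actin exposed by dead cells. In tumours they are known for taking up dead cell material and cross-presenting it on MHC class I to CD8 T cells. Conventional type 2 cells (cDC2), mature CCR7-bearing cells and pDC are the other dendritic cell states usually told apart from them.

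Levels are means over cells of UMIs per 10000 UMIs of the cell (CP10K), where UMIs (unique molecular identifiers) count captured RNA molecules. Intervals are exact 95% intervals and cover counting error only. C20 cells were deep: the median was 23793 UMIs per cell in the S303/7A library (12959 to 42859) and 12333 in the WT library (6933 to 24095). The medians in C16 were 13261 and 7559 UMIs, in C17 10450 and 5666.5, and in pDC 9396.5 and 5510 (S303/7A and WT). In median depth C20 ranked 4 of 22 clusters in the S303/7A library and 5 of 22 in the WT library. The mitochondrial share of C20 cells had a median of 2.03% in S303/7A and 2.10% in WT. Cell barcodes found in both libraries numbered 48, and 0 of them were C20 cells.

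The markers given with the cluster were present. Xcr1 averaged 3.43 CP10K in S303/7A and 4.77 CP10K in WT C20 cells, against 0.0988 and 0.112 in C16, 0 and 0.0412 in C17, and 0 UMIs in pDC of either library. A Xcr1 UMI was found in 32 of 35 S303/7A cells and 24 of 27 WT cells of C20. No Xcr1 UMI was found in 194 S303/7A and 357 WT NK cells, which allows a share of cells with a UMI of up to 1.55% and 0.840% by the limit of 3 counts (exact upper bounds 1.88% and 1.03%), but NK cells were shallower, with medians of 5864.5 and 3621 UMIs. With each cell thinned to 5000 UMIs, 51.4% (34 to 68.6) of S303/7A and 77.8% (57.7 to 91.4) of WT C20 cells kept a Xcr1 UMI, against 4.27% and 6.52% of C16 cells.

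Clec9a averaged 0.634 CP10K in S303/7A and 0.469 CP10K in WT C20 cells, and 22 of 35 and 13 of 27 cells had a UMI of it. The highest level in the compared groups was that of pDC, 0.120 and 0.0817 CP10K. Irf8 was found in every C20 cell, at 20.6 CP10K in S303/7A and 22.4 CP10K in WT. It did not set C20 apart from the other groups by itself, since pDC stood higher, at 28.4 and 31.6 CP10K, and C17 close behind, at 15.8 and 16.8, while C16 had 1.59 and 2.01. All 3 markers were found together in 31 of the 62 cells, 2 of them in 29 cells and 1 in 2 cells. The markers go with the label conventional DC1. Since the clusters were made from the same expression values, differences between C20 and other clusters are descriptions with no test.

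**Figure D1:**
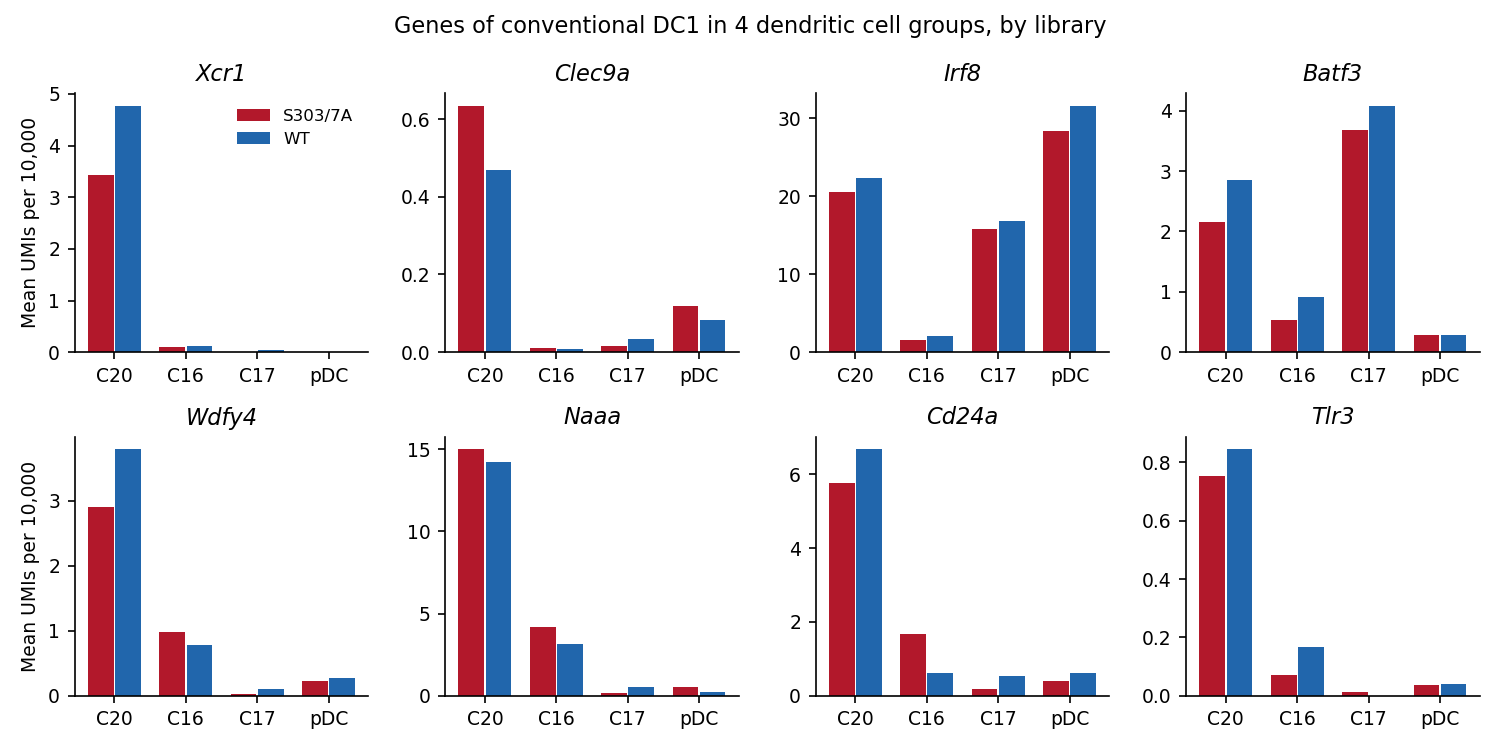
Mean level (UMIs per 10000 UMIs of the cell) of 8 cDC1 genes in C20, C16, C17 and pDC. Bars give 1 library each, S303/7A left of WT, with no error bar because each genotype is 1 library. Xcr1, Clec9a, Wdfy4, Naaa, Cd24a and Tlr3 are highest in C20 in both libraries, Irf8 is highest in pDC (28.4 and 31.6) and Batf3 in C17 (3.68 and 4.08).

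Of 7926 genes with a UMI in at least 10% of cells of C20 or C16, 101 (1.27%) were more than 2-fold higher in C20 in each library and 192 (2.42%) more than 2-fold lower. Of 7944 genes measured against C17, 586 (7.38%) were higher and 612 (7.7%) lower. Of 8113 genes measured against pDC, 299 (3.69%) were higher and 593 (7.31%) lower. For log2 ratios 0.1 CP10K was added to each level, so ratios of low genes are understated, and both libraries' ratios were averaged. The median over all measured genes was 0.02 against C16, 0.17 against C17 and -0.08 against pDC. In each library, 52 genes were past 2-fold above all 3 groups and 16 below all 3. The cluster choice used all of these values, so nothing is read from the shares.

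Among the 4 dendritic cell groups, the gene most particular to C20 by its smallest ratio over the other 3 was Xcr1, followed by Rab7b, a small GTPase of late endosomes, and Plpp1, a lipid phosphatase. Rab7b had 2.75 CP10K in S303/7A and 2.82 CP10K in WT C20 cells, against at most 0.429 in any compared group and library. Plpp1 had 0.616 and 0.742 CP10K, against at most 0.0745, but over all 22 clusters C01 was higher (mean of the libraries 0.886). Ppt1, a lysosomal thioesterase, had 4.90 and 5.87 CP10K, against at most 1.15, the WT level of pDC. Snx22, a sorting nexin, had 0.593 and 0.638 CP10K and was at 0 UMIs in C17 and pDC. Gcsam had 0.784 and 0.873 CP10K in C20 and 0 UMIs in C16 and pDC. Against a floor of 3 UMIs in C16, Gcsam was at least 44.6-fold higher in the S303/7A library and at least 25-fold higher in the WT library. Its smallest ratio over the 3 groups changed sign, to -1.76, with cells thinned to 1000 UMIs.

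Other genes among the 20 most particular to C20 fall into groups by what they are known to do. Serpinf1, a secreted serpin, had 1.38 CP10K in S303/7A and 1.59 CP10K in WT C20 cells, against at most 0.324 in the compared groups, but C20 ranked 6 of 22 clusters for it. Cd36, a scavenger receptor for lipids and apoptotic cells, had 0.381 and 0.334 CP10K and at most 0.0161 in the 3 compared groups, in C16. St3gal5, which makes the ganglioside GM3, had 1.03 and 0.811 CP10K, and Agpat3, an acyltransferase of phospholipid synthesis, 1.11 and 0.920 CP10K. Naaa, a lysosomal amidase, was the most abundant of the 20, at 15 and 14.2 CP10K, with 4.21 and 3.14 in C16. Btla, an inhibitory receptor, had 1.07 and 1.92 CP10K, and Cd24a, a surface glycoprotein used to sort cDC1, 5.78 and 6.68 CP10K. Cd207 (langerin) was found in 11 of 35 and 6 of 27 C20 cells, at 0.681 and 0.196 CP10K. The 20 also held Tlr3, Clec9a, Sult1a1, Fam149a, Rtl8b and the mitotic ubiquitin enzyme gene Ube2c, for which C20 ranked 3 of 22 clusters in S303/7A and 4 in WT.

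Over the list of 30 cDC1 genes, 29 were measured against C16, 19 of them past 2-fold higher and 0 lower, with a median log2 ratio of 1.97. Against C17 the counts were 19 higher and 2 lower of 29 (median 2.27, or 2.66 with genes at 0 UMIs set at their bound). Against pDC they were 22 higher and 1 lower of 30 (median 2.51, or 2.42 with such genes at their bound). Over all measured genes the shares higher and lower were 1.27% and 2.42% against C16, 7.38% and 7.7% against C17, and 3.69% and 7.31% against pDC. The list names cDC1 and so cannot serve as independent evidence. Genes of the list with a ratio below 0 numbered 5 against C17, 3 against pDC and 2 against C16. Batf3, the partner of IRF8 in cDC1 development, had 2.16 CP10K in S303/7A and 2.85 CP10K in WT C20 cells and was found in each of the 62, but C17 had 3.68 and 4.08 CP10K. Ly75 (DEC-205), an uptake receptor, had 0.216 and 0.109 CP10K in C20 and 1.37 and 1.05 in C17. Nfil3, a transcription factor of cDC1 development, had 0.0970 and 0.0330 CP10K in C20 and 1.37 and 1.61 in C17. Cd8a, a marker of cDC1 resident in mouse lymphoid organs, had 0.0988 and 0.138 CP10K in C20 and 2.09 and 1.92 in pDC.

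Against C16, the largest differences upward were Xcr1, Irf8, Gcsam, Rab7b, Plpp1, Ppt1, Gng12 and Clec9a. Gng12, a G protein subunit, had 2.26 CP10K in S303/7A and 2.61 CP10K in WT C20 cells, against 0.194 and 0.526 in C16. Downward, Cd209a (DC-SIGN), a lectin of cDC2, had 0.0419 CP10K and 0 UMIs in C20, against 4.07 and 3.61 CP10K in C16. S100a4 had 0.640 and 0.510 CP10K in C20, against 15.3 and 8.67 in C16. Ifitm1, an interferon-induced membrane protein gene, had 0.828 and 3.38 CP10K, against 23 and 25.6. Il1r2, the interleukin 1 decoy receptor, Ffar2, a receptor for short-chain fatty acids, Mcemp1, Ltb and Ms4a4c complete the 8 lowest. On the cDC2 list, 11 of 14 measured genes were past 2-fold lower in C20 than in C16 (all genes 2.42%) and 0 higher (all genes 1.27%), with a median of -1.77. Among the 11, Sirpa, which encodes the receptor for CD47, had 0.419 and 0.186 CP10K in C20, against 1.45 and 1.02 in C16.

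**Figure D2:**
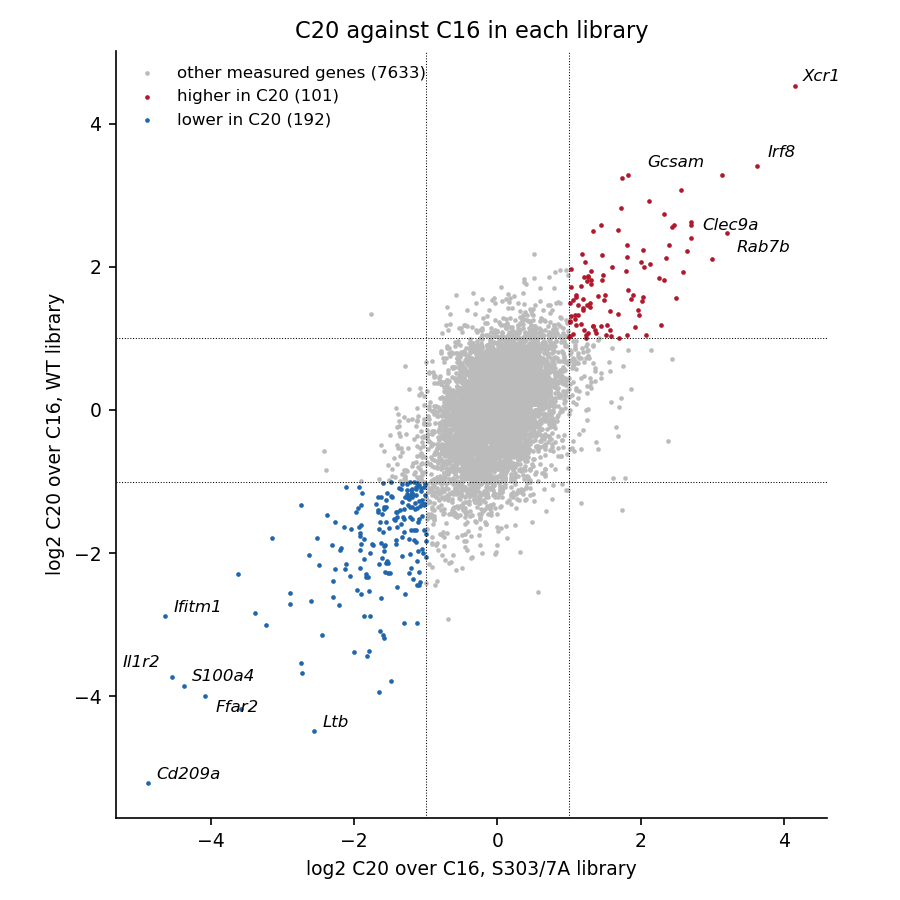
Each point is 1 of 7926 genes: log2 ratio of C20 over C16 in the S303/7A library (horizontal) and the WT library (vertical), with dotted lines at 2-fold. The 101 genes past 2-fold above in both libraries are led by Xcr1 and the 192 below by Cd209a.

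C17 carried the genes of mature, migratory dendritic cells, and C20 held little of them. Of 25 such genes, 24 were past 2-fold lower in C20 than in C17 (all genes 7.7%) and 0 higher (all genes 7.38%). Their median was -3.85, also with genes at 0 UMIs at their bound. Ccr7, the chemokine receptor that leads dendritic cells to lymph nodes, had 0 UMIs in all 62 C20 cells, against 20.4 CP10K in S303/7A and 22.7 CP10K in WT C17 cells. At a floor of 3 UMIs per library, that is at least 546.1-fold and 274.5-fold lower. Fscn1, an actin-bundling protein of dendritic cell processes, had 0.0456 and 0.0312 CP10K, against 29.7 and 22 in C17. Ccl5 had 1.10 and 1.27 CP10K, against 169.3 and 121.6, and Ccl22 0.131 and 0.0553, against 16.8 and 13.1. Il12b, which encodes the p40 subunit of interleukin 12, had 0.0207 CP10K in S303/7A and 0 UMIs in WT C20 cells, against 3.80 and 6.77 CP10K in C17. Ramp3, Samsn1 and Cacnb3 complete the 8 lowest, and Mreg and Nudt17 also had 0 UMIs in C20.

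Cd86, a costimulatory ligand, was the mature gene not past 2-fold in each library, since it was past 2-fold lower in the S303/7A library but not in the WT library. It had 1.32 CP10K in S303/7A and 1.44 CP10K in WT C20 cells, against 2.87 and 2.20 in C17. Upward against C17 the leading genes were Naaa, Xcr1, Ckb, Plet1, Wdfy4, Plbd1, Rab7b and Cd24a. Ckb, brain-type creatine kinase, had 6.72 and 7.64 CP10K, against 0.0872 and 0.316 in C17.

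Against pDC, 17 of 18 pDC genes were past 2-fold lower in C20 (all genes 7.31%) and 0 higher (all genes 3.69%). Their median was -4.39, or -4.56 with genes at 0 UMIs at their bound. Siglech, the surface receptor by which mouse pDC are known, had 0 UMIs in C20, against 12.9 CP10K in S303/7A and 16 CP10K in WT pDC, at least 344.5-fold and 193.4-fold lower. Tcf4, which encodes the transcription factor E2-2 that sets pDC identity, had 0.203 and 0.271 CP10K, against 6.15 and 7.14. Ly6d, Iglc3 and Spib, a transcription factor of pDC, also had 0 UMIs in C20, and Klk1, Cox6a2, Slpi, Ccr9 and Cd7 complete the 8 lowest. Id2, which opposes E2-2, had 18.8 and 15.6 CP10K in C20, against 1.16 and 1.33 in pDC. Cst3 (cystatin C), the most abundant gene named here, had 296.1 and 309.6 CP10K, against 18.1 and 30.7 in pDC, with C17 at 286.5 and 288.1 and C16 at 157.7 and 178.1. Plet1, Xcr1, Naaa, Sept3, Plbd1 and Cd24a were the others of the 8 highest. Of the genes shared by conventional dendritic cells, Flt3, the receptor for their growth factor FLT3 ligand, had 0.654 and 0.932 CP10K in C20, 0.264 and 0.258 in C16, 0.811 and 1.38 in C17, and 0.769 and 0.630 in pDC. Of the 9 such genes measured, 1 (Flt3) was past 2-fold higher and 0 lower than in C16, but 7 had a ratio below 0 (median -0.59). The counts were 3 higher and 2 lower against C17 and 1 higher and 3 lower against pDC. Over all measured genes, 1.27% were higher and 2.42% lower than in C16, 7.38% and 7.7% than in C17, and 3.69% and 7.31% than in pDC.

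The genes of MHC class II presentation were high in C20, but below C16. Cd74, the invariant chain, had 224.4 CP10K in S303/7A and 188.8 CP10K in WT C20 cells, 266.1 and 233.0 in C16, 70.1 and 77.9 in C17, and 96.0 and 74.2 in pDC. The median log2 ratio over the list was -0.39 against C16 (0 higher and 3 lower of 13), 1.33 against C17 (7 higher and 1 lower of 14) and 1.49 against pDC (7 higher and 0 lower of 13). All measured genes were higher and lower in 1.27% and 2.42% against C16, 7.38% and 7.7% against C17, and 3.69% and 7.31% against pDC. The 3 class II genes past 2-fold lower than in C16 were H2-DMb2 and H2-Oa, which serve peptide loading and its control, and Ctss, the protease that trims the invariant chain. Ctss had 8.18 and 5.11 CP10K in C20, against 17.1 and 19.9 in C16.

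The class I heavy chain genes H2-K1, H2-D1, H2-Q4 and H2-Q7 and the light chain gene B2m were past 2-fold lower in C20 than in C17 and in pDC. The peptide transporter genes Tap1 and Tap2 and the immunoproteasome genes Psmb8, Psmb9 and Psmb10 stayed within 2-fold of every compared group. H2-K1 had 7.65 CP10K in S303/7A and 9.59 CP10K in WT C20 cells, 10.4 and 17.1 in C16, 22.7 and 28.3 in C17, and 26 and 28.6 in pDC. B2m had 30.2 and 28.8 CP10K in C20, 42.7 and 59.7 in C16, 98.7 and 107.9 in C17, and 69.8 and 74.4 in pDC. Psmb9, an immunoproteasome subunit, had 9.01 and 9.41 CP10K in C20, 4.77 and 7.08 in C16, 7.45 and 7.87 in C17, and 5.41 and 5.10 in pDC. Of the 22 class I genes, 0 were past 2-fold in either direction against C16 (median -0.40), 8 were lower and 2 higher against C17 (median -0.79), and 6 lower and 0 higher against pDC (median -0.60). The shares of all measured genes lower and higher were 2.42% and 1.27% against C16, 7.7% and 7.38% against C17, and 7.31% and 3.69% against pDC. The 2 class I genes higher than in C17 were the chaperones Calr (4.79 and 6.55 CP10K) and Pdia3 (2.86 and 3.17 CP10K), which assist peptide loading in the endoplasmic reticulum.

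Among genes tied to cross-presentation, Wdfy4, which cDC1 need to cross-present cell-associated antigen in mice, had 2.90 CP10K in S303/7A and 3.79 CP10K in WT C20 cells, 0.986 and 0.772 in C16, 0.0272 and 0.0956 in C17, and 0.219 and 0.277 in pDC. Cybb, the catalytic subunit of the phagocyte oxidase, went the other way, at 0.353 and 0.224 CP10K in C20, 1.30 and 1.89 in C16 and 6.11 and 6.13 in pDC. The GTPase Rac2, which assembles that oxidase, had 1.35 and 1.56 CP10K in C20, 3.92 and 3.73 in C16 and 11.6 and 15.6 in pDC. Rab32 had 1.24 and 0.909 CP10K, against 0.400 and 0.405 in C16. Of the 22 measured genes of this list, 3 were past 2-fold higher and 3 lower than in C16 (median 0.08). Against C17, 5 were higher and 2 lower (median 0.20), and against pDC 7 and 4 (median -0.33). Over all measured genes the shares higher and lower were 1.27% and 2.42% against C16, 7.38% and 7.7% against C17, and 3.69% and 7.31% against pDC.

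Among the Toll-like receptors, Tlr3, the endosomal sensor of double-stranded RNA, and Tlr11, which recognises profilin of parasites in mice, were past 2-fold higher in C20 than in C16 and C17 and pDC. Tlr3 had 0.755 CP10K in S303/7A and 0.845 CP10K in WT C20 cells, against at most 0.168 in the 3 compared groups, and Tlr11 0.168 and 0.408 CP10K, against at most 0.116. Tlr2 was lower than in C16, at 0.0746 and 0.0756 CP10K, against 0.334 and 0.408, and Tlr7, which pDC use to sense viral RNA, had 0.0102 CP10K and 0 UMIs, against 0.705 and 0.307 in pDC. For the lectins, Clec12a had 1.05 and 0.713 CP10K in C20, 0.779 and 0.585 in C16, 0.185 and 0.131 in C17, and 2.51 and 2.26 in pDC. Havcr2 (TIM-3), a checkpoint receptor of dendritic cells, had 0.543 and 0.581 CP10K in C20, 0.272 and 0.314 in C16, 0.0721 and 0.0591 in C17, and 0.0687 and 0.118 in pDC.

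Of 17 chemokine and cytokine genes measured against C16, 0 were past 2-fold higher and 5 lower, and against C17 1 of 18 was higher and 7 lower. Against pDC, 1 of 16 was higher and 2 lower (median 0.15). Among all measured genes, 1.27% were higher and 2.42% lower than in C16, 7.38% and 7.7% than in C17, and 3.69% and 7.31% than in pDC. The chemokine or cytokine gene above C17 was Il18, at 0.236 CP10K in S303/7A and 0.460 CP10K in WT C20 cells, against 0.0355 and 0.0650. Cxcl9, a ligand of CXCR3 on T cells, had 1.42 and 1.61 CP10K in C20, 1.36 and 2.42 in C16, and 0.384 and 3.06 in C17. Cd274 (PD-L1) had 0.0373 and 0.223 CP10K, 0.317 and 0.557 in C16, and 1.49 and 2.09 in C17. The ligand of XCR1, Xcl1, a gene chosen after its values were seen, was highest of 22 clusters in the NK cluster C10, at 14.1 CP10K in S303/7A and 12.6 CP10K in WT. The CD8 T cell cluster C11 had 3.11 and 1.44 CP10K, and pDC 0.185 and 2.69, with a UMI in 3.03% of WT pDC.

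Interferon response genes were lower in C20 than in C16. Of 34 measured genes, 31 had a ratio below 0 and 3 above, and 8 were past 2-fold lower and 0 higher. Of all genes measured against C16, 2.42% were past 2-fold lower and 1.27% higher. The median of the list was -0.99 (-0.60 in the S303/7A library and -1.44 in the WT library). Ifit3, an antiviral protein gene, had 0.299 CP10K in S303/7A and 0.220 CP10K in WT C20 cells, against 1.02 and 4.33 in C16, and Rtp4 0.334 and 0.243, against 1.44 and 3.61. Isg15 had 5.11 and 6.85 CP10K, against 6.64 and 23.4. Of this list, Ifi205 was an exception, at 2.66 and 1.69 CP10K in C20, against 1.08 and 1.69 in C16, 0.181 and 0.159 in C17, and 0.0994 and 0.139 in pDC. Against C17 and pDC the medians of the list were -0.27 and -0.17, and the sign against C17 changed under some settings. Immediate early genes, the first to be transcribed after a stimulus, were also lower in C20 than in C16, 6 lower and 0 higher of 16 (median -0.97). Junb had 4.39 and 2.74 CP10K in C20, against 9.89 and 7.33 in C16, while Fos had 7.42 and 6.91, against 5.26 and 8.82.

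Most proliferation genes were past 2-fold higher in C20 than in C17 and pDC, and 4 of 24 than in C16. Of the 24 genes, 18 were past 2-fold higher than in C17 (median 2.21) and 18 than in pDC (median 1.87). Against C16 the median was 0.59, with 22 of 24 above 0, and 0 were past 2-fold lower in any group. Of all measured genes, 7.38% were past 2-fold higher than in C17, 3.69% than in pDC and 1.27% than in C16. Ube2c had 3.33 CP10K in S303/7A and 2.10 CP10K in WT C20 cells, 0.827 and 0.624 in C16, 0.104 and 0.239 in C17, and 0.414 and 0.143 in pDC. Top2a, the topoisomerase of dividing cells, had 1.51 and 1.10 CP10K in C20 and 1.02 and 0.924 in C16. The S phase genes Pcna and Mcm6 did not differ from C16 by more than 2-fold, at 0.525 and 0.384 CP10K for Pcna, against 0.556 and 0.368, and 0.346 and 0.321 CP10K for Mcm6, against 0.396 and 0.281.

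Since C20 cells were also deeper, the 20 proliferation genes other than Stmn1, Tubb5, Hmgb2 and H2afz were counted per cell after thinning to 5000 UMIs. At least 5 of the 20 were found in 45.7% (28.8 to 63.4) of S303/7A and 40.7% (22.4 to 61.2) of WT C20 cells. The shares were 25.6% (18.0 to 34.5) and 18.5% (11.1 to 27.9) in C16, 2.67% and 3.85% in C17, and 13.3% and 0% in pDC. Thinning left out 0 C20 cells, 15 WT C16 cells, 10 S303/7A and 38 WT C17 cells, and 2 S303/7A and 13 WT pDC. In each library 4 C20 cells lay near the limit, with 4 to 6 genes. Within C20, cells with a Top2a UMI had 4.13 CP10K of Xcr1 in S303/7A and 4.83 in WT, against 2.83 and 4.73 in cells without one, so cells with proliferation genes carried Xcr1 too.

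**Figure D3:**
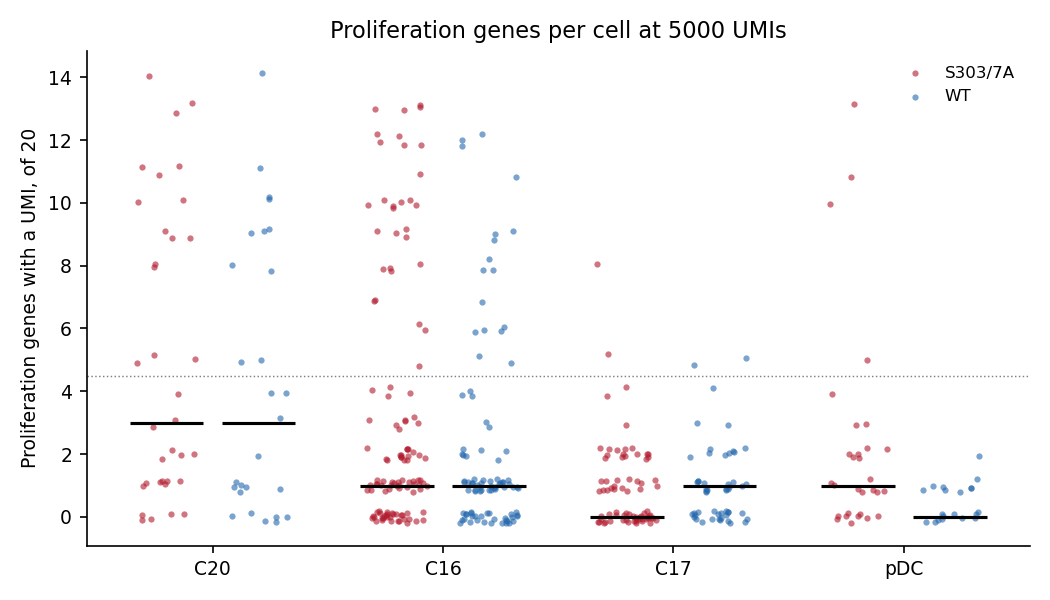
Number of 20 proliferation genes with a UMI in each cell thinned to 5000 UMIs, by group and library (S303/7A left of WT). Points are cells, moved slightly apart, black bars are medians, and the dotted line marks the limit of 5 genes. The medians are 3 genes in C20 in both libraries and 0 or 1 in C16, C17 and pDC.

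Between the genotypes, C20 made up 14.8% (10.5 to 19.9) of 237 DC in the S303/7A library and 12.1% (8.10 to 17.1) of 224 in the WT library, a ratio of 1.23 (0.721 to 2.10). Of cells outside the tumour and stromal classes, C20 was 0.939% (0.655 to 1.30) in S303/7A and 0.649% (0.428 to 0.943) in WT, a ratio of 1.45 (0.850 to 2.48). Both intervals include 1, cover the counting of cells only and say nothing of the spread between mice. Without C20 cells holding a marker of another cell type, which leaves 2 S303/7A and 12 WT cells, the ratios were 0.171 and 0.187. Of all cells, whose balance the sort and the mix also set, the ratio was 1.80 (1.06 to 3.09).

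Of 5830 genes with a UMI in at least 25% of C20 cells of 1 library, 175 (3%) were more than 2-fold higher in S303/7A and 79 (1.36%) more than 2-fold lower, and the median log2 ratio over all of them was -0.01. Depth, higher in the S303/7A library in all 4 groups, and genotype cannot be told apart here. Of 25 measured genes of the cDC1 list, 1 was past 2-fold higher and 0 lower (median -0.12). The 1 was Cd207, with 54 UMIs in S303/7A and 8 in WT C20 cells, 3.05 times the share of UMIs (1.44 to 7.42). Its highest cell had 4.96 CP10K in S303/7A and 1.28 in WT, and after thinning 3 of 35 and 2 of 27 cells held a UMI of it. Xcr1 had 273 and 173 UMIs, 0.713 times (0.587 to 0.867) the WT share, and single cells overlapped, from 0 to 9.20 CP10K (median 3.30) in S303/7A and from 0 to 13.8 (median 4.21) in WT. Btla had 0.536 times (0.385 to 0.747) the WT share, and Irf8 0.885 times (0.814 to 0.963).

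The 8 genes highest in S303/7A C20 cells were Tpm3-rs7, Selenop, Ccl8, Apoe, Ms4a7, Pf4, Fcrls and Zmynd15. Tpm3-rs7 had 3.89 CP10K in S303/7A and 0.0470 CP10K in WT, while Tpm3, the tropomyosin gene it is named after, had 2.10 and 4.47. Reads may be shared by such near-identical copies and how they were counted was not stated, so both values are uncertain. The log2 ratio of Tpm3-rs7 was 4.76 in C20, 3.70 in C16, 3.79 in C17 and 4.10 in pDC, so it was not limited to C20. Apoe, a lipid carrier made in bulk by macrophages, had 28.7 and 2.49 CP10K, Ccl8 5.60 and 0.374, and Ms4a7 2.12 and 0.132. Fcrls had 53 UMIs in S303/7A and 0 in WT, at least 7.98-fold higher at a floor of 3 UMIs over the WT C20 cells.

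The 8 lowest were Plac8, Ly6c2, Ppfia4, Cxcl10, Ifitm1, Il1b, Serpinb6b and Oasl1. Plac8, a gene of monocytes, pDC and other leukocytes, had 2.73 CP10K in S303/7A and 19.1 CP10K in WT C20 cells, and its log2 ratio was -2.77 in C20, -1.89 in C16, -1.31 in C17 and -0.56 in pDC. Ly6c2, a monocyte surface gene, had 0.338 and 2.03 CP10K in C20. The summed level of 7 monocyte genes, Plac8 and Ly6c2 among them, had a median of 10.4 CP10K per C20 cell in S303/7A and 24.8 in WT. Plac8 alone had medians of 0.497 and 16.5, so the sum is no separate measure of monocyte RNA. Of the 5 monocyte genes measured between the genotypes, 4 had a ratio below 0. The 1 above 0 was Lyz2, with 15.4 CP10K in S303/7A and 5.33 CP10K in WT C20 cells. The part of monocyte RNA in these values was not tested. Il1b, the inflammatory cytokine, had 0.933 and 2.92 CP10K in C20, a ratio of -1.55, with -0.13 in C16, -0.15 in C17 and -0.09 in pDC. Of 120 Il1b UMIs in WT C20 cells, 78 lay in a single cell, so its WT level rests largely on that cell. For Ifitm1, a single WT cell likewise held 86 of 112 UMIs. Cxcl10, a ligand of CXCR3, had 0.200 and 1.08 CP10K in C20, a ratio of -1.98, with -0.62 in C16, -0.71 in C17 and 0.85 in pDC. The difference of these ratios between groups was not tested.

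Macrophage genes were among the 175 genes higher in S303/7A C20 cells, and the 175 were not all sorted by cell type. Of 11 macrophage genes, 10 had a ratio above 0 and 9 were past 2-fold higher, where 3% of all 5830 genes were. Their median was 2.07. In the other groups the medians were 0.60 in C16 (9 genes measured), 0.07 in C17 (4) and 1.08 in pDC (11). C1qa, a complement subunit, had 10.1 CP10K in S303/7A and 1.77 CP10K in WT C20 cells, which is 21.0% and 5.60% of its level in the macrophages of the same library. Much of the difference lay in some cells. The summed C1qa, C1qb and C1qc UMIs had a median of 2.10 CP10K per cell in S303/7A and 0.601 in WT, with highest cells of 163.2 and 49.9. At least 10 such UMIs were found in 12 of 35 S303/7A and 3 of 27 WT cells, and no such UMI in 2 and 12 cells. Both counts depend on depth, which was higher in S303/7A. Among cells with fewer than 10, Apoe had 1.59 CP10K in S303/7A and 0.363 in WT. In the same cells Mrc1 had 0.0225 and 0.0337, and Csf1r 0.0940 and 0.165. The summed level of the 11 genes ran from 1.67 to 448.3 CP10K per cell in S303/7A and from 0 to 79.6 in WT, and none of the 11 was at 0 UMIs in either library.

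The S303/7A C20 cells with at least 10 C1q UMIs had a median of 25956.5 UMIs, against 20135 in the other cells, and held less of the cDC1 genes and more of other macrophage genes. Xcr1 was 2.20 CP10K in the 12 cells, against 4.06 in the 23 others, Irf8 15.2 against 23.5, and Apoe 80.7 against 1.59. Of those 12 cells, 10 had a Xcr1 UMI. Without cells of at least 10 C1q UMIs, a setting chosen after seeing the data, the S303/7A over WT ratio of Ccl8 was -0.23 and that of Pf4 -0.09, and 5 macrophage genes were measured, with a median of 0.82. The part of macrophage RNA in the other differences between the genotypes was not tested.

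**Figure D4:**
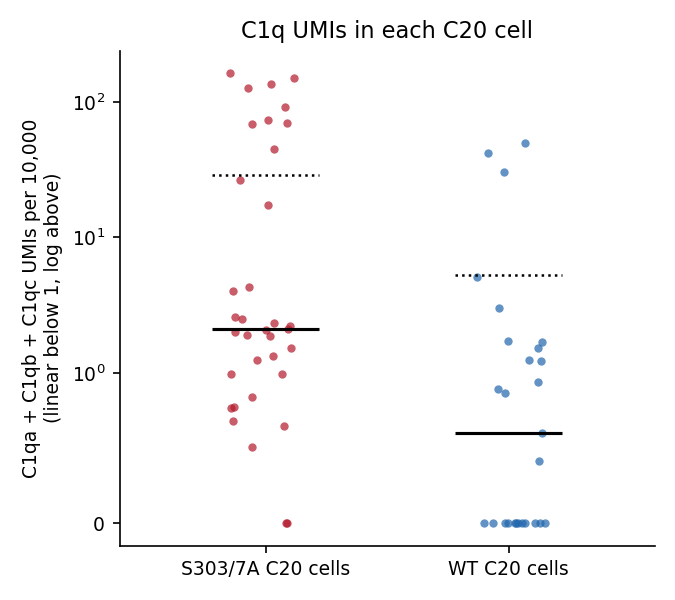
Summed C1qa, C1qb and C1qc UMIs per 10000 in each C20 cell, S303/7A left and WT right, on an axis that is linear below 1 and logarithmic above. Solid bars are medians (2.10 and 0.601) and dotted bars are means. At least 10 C1q UMIs were found in 12 S303/7A and 3 WT cells. These form the upper part, except for 1 S303/7A cell of 42859 UMIs, which lies at 2.333.

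Markers of other cell types were also summed per C20 cell. The B cell genes Cd79a, Ms4a1, Ebf1 and Pax5 were at 0 UMIs in both libraries, while Ighm, which pDC also held, had a UMI in 12 of 35 S303/7A and 13 of 27 WT cells. Of 9 T cell genes, Cd3d, Cd3e, Trac, Cd4 and Foxp3 were at 0 UMIs in WT, 0 genes were at 0 UMIs in S303/7A, and the median summed level was 0 CP10K per cell in both, with highest cells of 17.5 in S303/7A and 1.38 in WT. For NK genes the highest cells had 12.8 and 107.5 CP10K. Of 115 Gzma UMIs in WT C20 cells, 112 lay in 1 cell. Of the 7 monocyte genes, Vcan was at 0 UMIs in both, but at least 1 of them was found in 34 of 35 S303/7A and 27 of 27 WT cells, and the summed tumour and stroma genes had a median of 1.58 CP10K per cell in S303/7A and 1.71 in WT. Of 6 neutrophil genes, S100a8 and Retnlg were at 0 UMIs in both libraries, and the highest cells had 0.639 and 0.862 CP10K.

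All 23 measured heat shock genes were lower in S303/7A than in WT C20 cells, though 0 of them by more than 2-fold (median -0.37). Of all 5830 genes measured, 2959 had a ratio below 0. The medians of the heat shock list were -0.28 in C16 (14 of 21 below 0), -0.03 in C17 (11 of 19) and -0.17 in pDC (16 of 21). Hspa8, the constitutive HSP70, had 22.9 CP10K in S303/7A and 39.0 CP10K in WT. Single cells ran from 1.54 to 83.4 (median 16.9) in S303/7A and from 11 to 91.3 (median 34.8) in WT, so the libraries overlapped. Among cells with fewer than 10 C1q UMIs, Hspa8 had 25.7 CP10K in S303/7A and 41 in WT. Hsp90ab1, the constitutive HSP90, had 13 and 21.1 CP10K, with 0.611 times (0.557 to 0.672) the WT share of UMIs. Its cells ran from 5.15 to 25.9 (median 12.8) and from 12.3 to 32.3 (median 19.6). Hspa1a, an inducible HSP70 and a target of HSF1, had 0.688 and 1.26 CP10K. It was found in 7 of 35 S303/7A and 11 of 27 WT cells. A single S303/7A cell held 43 of the 65 UMIs, and the highest WT cell 12 of 42. Against the other groups the 27 measured heat shock genes had medians of 0.14 in C20 over C16, 0.42 over C17 and 0.20 over pDC, and Hspa1a, Hspa5 and Fkbp4 were past 2-fold higher than in C17. The interval of the UMI ratio lay below 1 for 7 of the 23 genes and above 1 for 0, where 6.31% and 6% of all 5830 genes did so. The same count below 1 was 7 of 22 in the class I list, 7 of 25 in the interferon list and 6 of 25 in the cDC1 list. Above 1 lay 0, 3 and 4 genes of these lists. The proliferation list went the other way, with 12 of 24 above 1 and 1 below, as did the class II list, with 7 of 13 and 1. Without cells of at least 10 C1q UMIs, 22 of 24 genes were below 0 (median -0.50). Hsf1 itself had 0.102 and 0.193 CP10K, found in too few cells to be measured here, and UMIs at the 3′ end cannot show the mutated codons, so the genotype was not checked in these cells.

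Interferon response genes showed no common direction between the genotypes in C20, with 10 of 25 above 0 and 15 below. Their median was -0.09, or 0.17 without cells of at least 10 C1q UMIs. In the other groups it was -1.12 in C16 (32 genes measured), -0.39 in C17 (16) and -0.15 in pDC (23). Isg15 had 5.11 CP10K in S303/7A and 6.85 CP10K in WT C20 cells, 0.746 times (0.634 to 0.880) the WT share of UMIs, against 6.64 and 23.4 CP10K in C16. The class I list had a median of -0.22 (18 of 22 below 0) and the class II list 0.23 (10 of 13 above 0), with 0 and 1 genes past 2-fold. Proliferation genes had a median of 0.26 (17 of 24 above 0) and 0 genes past 2-fold. Of all 5830 genes measured, 3% were past 2-fold higher and 1.36% lower. The interval of the UMI ratio lay above 1 for 12 proliferation genes and below 1 for 1, and for 7 and 1 genes of the class II list. The cDC2 list had 8 of 8 genes above 0 (median 0.87) and the lectins and phagocytic receptors 14 of 16 (median 0.55). Without cells of at least 10 C1q UMIs, 5 of 5 measured cDC2 genes were above 0 (median 0.58). Mrc1, a lectin also made by macrophages, had 1.5 CP10K in the S303/7A C20 cells with at least 10 C1q UMIs and 0.0225 in those with fewer.

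**Figure D5:**
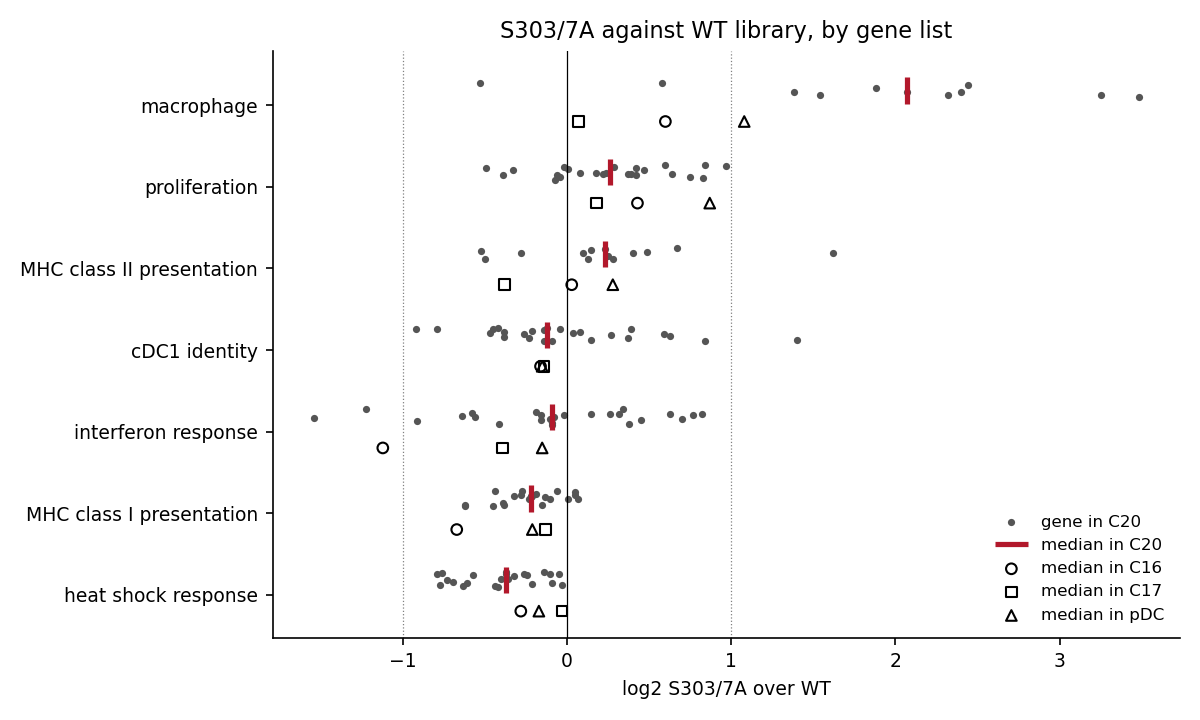
Log2 ratio of S303/7A over WT for the genes of 7 lists. Grey points are measured genes in C20 and red bars are their medians. Open symbols are the medians in C16, C17 and pDC, each over the genes measured there. Dotted lines mark 2-fold. The macrophage list lies highest (median 2.07) and all 23 heat shock genes lie below 0 (median -0.37).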

How the data were processed

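The authors deposited natural log values, ln of 1 plus a cell's UMIs of a gene scaled to 100000 UMIs per cell, with whole counts of UMIs and genes and a mitochondrial percent for each cell. Per the submitters' processing notes, Cell Ranger, Seurat 3.0 and the build mm10 (GRCm38) were used. The filtering, clustering and naming of cells is not given in the sources used here. Undoing the log gave counts within 0.1 UMI of a whole number for 99.94% of values. Levels were averaged over cells and compared as log2 ratios with a pseudocount of 0.1 CP10K. A gene was counted past 2-fold in each library, or once between genotypes. Intervals are Clopper-Pearson, conditional for ratios. No test was run and no doublet caller was used. Cells, lists and settings were chosen with earlier results of these data known. Named are list members, the 20 genes most particular to C20, the 8 highest and 8 lowest per comparison, and genes near 0 in C20 but found in most cells of another group. Amica1, Ifi30, Rab3c and Clec7a were not found under these names. Levels were thinned with fixed seeds and ratios were tested on simulated data. Python 3.11.15, numpy 2.4.6 and scipy 1.17.1 were used.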

Additional observations from a re-analysis of the deposited data

Results flagged for a closer look

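Some genes were past 2-fold in opposite directions in the libraries when C20 was set against another group, which with 1 library per genotype was not tested. Against C16, the log2 ratio of Lyz2 was 1.16 in S303/7A and -1.30 in WT, and that of Selenop 1.74 and -1.40. Against C17, the values in S303/7A and WT were 1.34 and -1.17 for C1qa, 1.29 and -1.09 for C1qb, 1.91 and -1.54 for Ccl8, 1.53 and -1.07 for Ms4a7 and 1.16 and -1.05 for Selenop. C1qa, C1qb and Ms4a7 are on the macrophage list, whose values in C20 cells are given above. Lyz2 is on the monocyte list, and Selenop and Ccl8 are on neither. The part of macrophage RNA in these opposite ratios was not tested. The other genes with opposite ratios were Diaph2 (1.01 in S303/7A and -1.05 in WT) and Madd (-1.02 and 1.27) against C17. Against pDC they were Chchd6 (1.11 in S303/7A and -1.11 in WT), Lmna (1.35 and -1.07), Odf2 (1.40 and -1.22), Upf1 (-1.09 and 1.25) and Wdr83 (1.07 and -1.14).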

How the results depend on the processing

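Alternatives were a pseudocount of 1 CP10K, a detection minimum of 50% or none, levels from summed UMIs, cells thinned to 1000 UMIs, no deepest 10% of cells, no cells with a marker of another cell type, 1 library only and, chosen after seeing the data, no cells with 10 or more C1q UMIs. In that order of settings where the count moved, the 101 genes higher in C20 than in C16 became 11 (pseudocount), 66 (50% minimum), 52 (thinned), 268 (no marker cells), 199 (S303/7A only) and 338 (WT only), and the 192 lower became 32, 80, 99, 410, 297 and 504. Against C17, the 586 higher became 71, 375, 194, 958 (S303/7A only) and 1207 (WT only), and the 612 lower 171, 250, 272 and 957 (WT only). Against pDC, the 299 higher became 49, 183, 129, 1007 (no marker cells), 478, 947 and 485 (no C1q cells), and the 593 lower 123, 228, 280, 315 (no marker cells), 990 and 1177. Between genotypes, the 175 higher became 12, 54, 50 and 1322 (no marker cells), and the 79 lower 4, 21, 135 (no minimum), 48, 1670 (no marker cells), 120 (no deepest cells) and 159 (no C1q cells).

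Leaving out cells with a marker of another cell type kept 2 S303/7A and 12 WT C20 cells, so its values rest on very few cells, and the ratio of C20 shares became 0.171 among DC and 0.187 outside the tumour and stromal classes. The interferon median of C20 over C17 turned to 0.50 (50% minimum), 0.38 (thinned) and 0.26 (no marker cells). The smallest ratio of C20 over the 3 groups changed sign for Rtl8b (-1.73) without marker cells and for Fam149a (-1.10) and Gcsam (-1.76) when thinned. The ratio of S303/7A over WT changed sign for Ly6c2 (0.27), Serpinb6b (0.46) and Oasl1 (0.05) without marker cells and for Ccl8 (-0.23) and Pf4 (-0.09) without C1q cells. The cause was not tested, beyond the fewer cells and UMIs these settings leave. The interferon median between genotypes in C20 was 1.2 without marker cells. No paired analysis was possible because each genotype has 1 library, and no replicate could be left out. Heat shock genes had a median of -0.34 from summed UMIs (22 of 23 below 0), -0.45 without the deepest cells (21 of 23), -0.49 thinned (8 of 8) and -1.18 without marker cells (20 of 24). Of 40 list medians under all settings, 245 values moved by no more than a fixed log2 limit and 120 by more. Another 3, from a median of at least that size in the main setting, changed sign.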
